A study of Mus musculus with 47 samples.

Results

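Axon guidance ligands and receptors were compared between NPY-positive cells of the hippocampal region CA3 and of auditory cortex (AC), each sequenced singly. The 69 genes were taken from the 22800 gene symbols of the count table by name alone: semaphorins of classes 3 to 7, plexins, neuropilins, Eph receptors, ephrins, Slits, Robo receptors, Unc5 receptors, netrins and Dcc. Of these, 35 were grouped as ligands and 34 as receptors. The cells came from NPY-hrGFP mice, a strain in which a fluorescent protein marks cells that express Npy, the gene of neuropeptide Y. The mice were males and females of 3 to 8 weeks and received no treatment, and the series design names 8 animals. The cytosol of each cell was drawn into a patch pipette in a brain slice, and its polyadenylated RNA was sequenced. AC cells were recorded in superficial layers of coronal slices and CA3 cells in the stratum lacunosum-moleculare of horizontal slices, so slice plane and region cannot be told apart. The comparison was made between 10 AC and 13 CA3 cells, with 3 CA1 cells given beside them.

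Each cell is 1 sample, and no label ties a cell to a mouse. A region was therefore treated as 1 sample, and no p-value was computed. Levels are given as CPM, a gene's reads per 1000000 reads counted on genes, and as log2(normalized count + 1), the second scaled with pooled size factors. The difference between regions is the mean log2 level of AC cells minus that of CA3 cells, and a difference of at least 1 is spoken of as higher in 1 region. For summed reads the 95% intervals are exact Poisson ones, and shares of cells carry exact Clopper-Pearson limits at 95%. The reads carry no molecular identifiers here, so these intervals cover counting error only and not the spread between mice.

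Guidance cues steer growing axons and migrating neurons, and in the mature brain many of the same proteins act at synapses. Secreted class 3 semaphorins bind neuropilins, which signal through class A plexins, whereas class 6 semaphorins are transmembrane proteins that bind class A plexins directly. EphA receptors bind ephrin-A proteins tethered to the membrane by a lipid anchor, and EphB receptors bind transmembrane ephrin-B proteins. Netrins attract axons through Dcc and repel them through Unc5 receptors, and Slits repel axons through Robo receptors.

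The windows of 250 bases before the first annotated start of 3 genes are shown because these genes had among the largest differences of their families: Sema6d and Epha7 towards CA3, and Sema5a towards AC. Capitals mark CG dinucleotides. Sequences are from RefSeq on GRCm38.p6, and RefSeq lists 2 starts for both Sema6d and Epha7, of which the first is shown.
Sema6d, chr2:124089719-124089968, + strand: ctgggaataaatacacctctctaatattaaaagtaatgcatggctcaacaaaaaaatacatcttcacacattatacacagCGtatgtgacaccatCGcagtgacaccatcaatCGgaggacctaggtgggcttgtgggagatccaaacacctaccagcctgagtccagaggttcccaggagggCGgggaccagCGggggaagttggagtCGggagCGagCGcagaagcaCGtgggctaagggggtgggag
Epha7, chr4:28812881-28813130, + strand: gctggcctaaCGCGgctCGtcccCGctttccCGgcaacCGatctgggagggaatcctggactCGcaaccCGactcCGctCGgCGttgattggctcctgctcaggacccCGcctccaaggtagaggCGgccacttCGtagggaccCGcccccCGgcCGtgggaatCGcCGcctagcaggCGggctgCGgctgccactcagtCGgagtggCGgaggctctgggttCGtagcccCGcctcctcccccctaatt
Sema5a, chr15:32244563-32244812, + strand: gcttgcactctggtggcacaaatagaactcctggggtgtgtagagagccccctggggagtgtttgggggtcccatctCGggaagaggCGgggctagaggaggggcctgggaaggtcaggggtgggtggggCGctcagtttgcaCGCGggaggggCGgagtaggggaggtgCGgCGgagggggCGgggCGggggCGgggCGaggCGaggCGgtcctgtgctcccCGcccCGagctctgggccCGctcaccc
The Sema6d window holds 9 CG dinucleotides, the Epha7 window 25 and the Sema5a window 17. Across all 32851 windows of this length the median is 6, and across the 75 windows of the 59 guidance genes that could be matched it is 15. The homeodomain core TAATTA, which reads the same on both strands, was found in none of the 3 windows, against 4.84% of all windows and 4% of those of guidance genes. A count of letters in a window is a description and not evidence of a binding site.

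AC cells held 1715012 to 6265431 reads and 3163 to 6288 detected genes, and CA3 cells 2229519 to 7949918 reads and 3679 to 8149 genes. The 3 CA1 cells included the shallowest library, with 601781 to 3202430 reads. Gad1 and Gad2, the enzymes of GABA synthesis, were read in all 23 AC and CA3 cells. Markers of other cells were also present. A list of 8 astrocyte genes summed to 0 to 1506 CPM per AC cell and at most 4.8 CPM per CA3 cell, with Aqp4 at 0. Microglia markers reached 4570 CPM in AC cell N42 and 1947 CPM in CA3 cell N27, with Tmem119 at 0, and oligodendrocyte markers reached 1043 CPM in CA3 cell N39. A list of 7 pyramidal neuron genes had a median of 11.2 CPM in AC and 0.421 CPM in CA3 and reached 809 CPM in AC cell N46 and 658 CPM in CA3 cell N26, both among the cells with high glial markers. The part of these RNAs in the differences was not tested. A glial list passed 1000 CPM in 3 AC and 3 CA3 cells. Values without these cells are given for each guidance gene with a difference of at least 1, or with reads in 10 or more cells, whose call or direction they changed. They are not given for genes of the other lists. Libraries N4 and N4X of AC differed far less than the other 399 pairs of the same region (chi-square per degree of freedom 2.25, against 44.1 or more) and were counted as 1 cell.

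Of the 69 guidance genes, 59 had a read in the 23 AC and CA3 cells, and 14 were read in at least 10 of these. The 10 without a read there were Sema3f, Sema3g, Sema5b, Plxnb1, Plxnb3, Plxnd1, Epha2, Ephb4, Robo4 and Ntn1, for which a read at this depth was not detected. In mean log2 level, 12 of the 59 (20.3%) were at least 1 higher in AC and 16 (27.1%) at least 1 higher in CA3. Among all 13624 genes with a read, 13.6% were higher in AC and 32.8% in CA3 by the same measure. The median difference was -0.12 over the 59 guidance genes and -0.35 over all genes, and relative to the latter value 17 guidance genes were higher in AC and 12 in CA3, as were 20.3% and 26% of all genes. With the 14 widely read genes alone, 4 were higher in AC and 7 in CA3, against 15.4% and 48.1% of the genes read as widely. Relative to the median of those genes the counts were 7 and 5, against 29.3% and 29.6%. By role, 7 of 31 ligands with a read were higher in AC and 5 in CA3, and 5 of 28 receptors were higher in AC and 11 in CA3.

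The spread between cells was wide. The differences of Sema6d, Epha7 and Epha5 were larger than the SD over cells in both regions, which was so for 2.79% of all genes with a read, and those of the other 56 guidance genes with a read were not. No guidance gene had CPM values that did not overlap between the regions, against 0.0367% of all genes. Of the 12 genes higher in AC, 8 stayed at a difference of 1 or more with each cell left out in turn, as did 10 of the 16 genes higher in CA3. The share of all called genes that did so is not given here. Over all labelled cells, 6 of the 12 and 11 of the 16 stayed at a difference of at least 1 in the same direction. There 9 guidance genes were higher in AC and 13 in CA3, beside 5.95% and 31.8% of all genes. Among the added cells, Npy was read only in N36, N45, N47, N48, N51 and N4X. Others were shallow, and some were rich in glial markers, with 139141 CPM for oligodendrocytes in CA3 cell N23 and 21259 CPM for astrocytes in AC cell N10. AC cell N52 held 40934 reads. The part of these libraries in the values was not tested. The plot of differences by family shows that the longest displacements towards CA3 belonged to Sema6d, Epha7 and Epha5, followed by Plxna2.

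**Figure D1:**
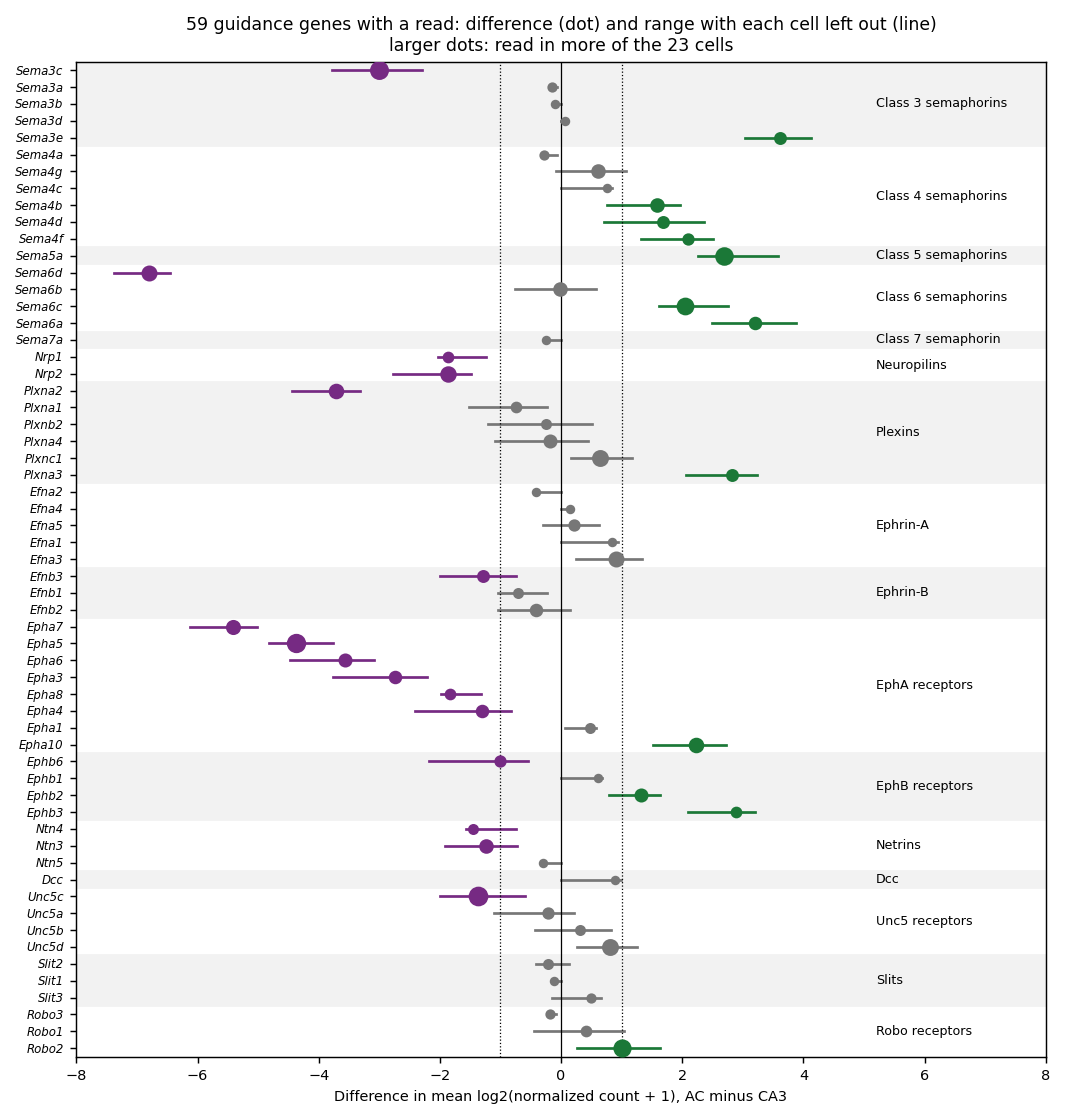
Differences in mean log2(normalized count + 1), AC minus CA3, for the 59 guidance genes with a read, by family. Dots are the differences, larger where more of the 23 cells held a read, lines span the values with each cell left out in turn, green marks genes at least 1 higher in AC, purple at least 1 higher in CA3, and dotted lines stand at 1 and -1. Sema6d at -6.79, Epha7 at -5.41 and Epha5 at -4.37 lie farthest to the CA3 side, and Sema3e at 3.62 and Sema6a at 3.21 farthest to the AC side.

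All 4 class 6 semaphorins were read in both regions, and Sema6d differed towards CA3 and Sema6c and Sema6a towards AC. Sema6d (chr2:124089969-124667770 on GRCm38, plus strand), a transmembrane ligand of class A plexins whose upstream window is shown above, had reads in 11 of 13 CA3 cells but in only 1 AC cell of 10. In CA3 it ranged from 0 to 543 CPM with a median of 80.6 CPM, and it was at 0 in N28 and N31. The only AC cell with a read, N41, held 2 reads, or 0.458 CPM, and all 3 CA1 cells were at 0. The AC cell lay below all 11 CA3 cells with reads, of which the lowest was at 3.27 CPM. Summed over cells, Sema6d was at 0.0587 CPM in AC (0.00711 to 0.212) and at 137 CPM in CA3 (134 to 140), and 3 reads over the CA1 cells would have been 0.596 CPM. The mean log2 level was 0.16 ± 0.51 in AC (SD, n = 10 cells) and 6.96 ± 3.73 in CA3 (SD, n = 13 cells), a difference of -6.79 that ran from -7.37 to -6.45 with each cell left out. Over all labelled cells of the table, 19 in AC and 21 in CA3, it was -4.86.

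Sema6c (chr3:95160457-95174024, plus strand), also a transmembrane semaphorin, had a median of 146 CPM and a highest value of 335 CPM in AC, where 7 of 10 cells held reads. In CA3, 9 of 13 cells held reads, but the median was 10.7 CPM, and only N38, at 252 CPM, exceeded the AC median. CA1 values were 3.32, 3.12 and 0 CPM. The difference in mean log2 level was 2.05, with a range of 1.62 to 2.76 when each cell was left out, and summed over cells Sema6c was at 138 CPM in AC (134 to 142) and 34.7 CPM in CA3 (33.04 to 36.36). Sema6a, a ligand of Plxna2 and Plxna4 that was read in too few cells for the naming rule and was chosen after its values were seen, was read in 5 of 10 AC cells at 23.7 to 655 CPM. It was read in 2 of 13 CA3 cells, N29 at 196 CPM and N30 at 35.8 CPM, and in all 3 CA1 cells at 176, 588 and 31.7 CPM. Its difference was 3.21 in the 23 cells and 0.21 over all labelled cells. Sema6b, a ligand of Plxna4, was read in 4 AC and 5 CA3 cells with a difference of -0.02, and it reached 568.3 and 224 CPM in CA1 cells N1 and N6.

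**Figure D2:**
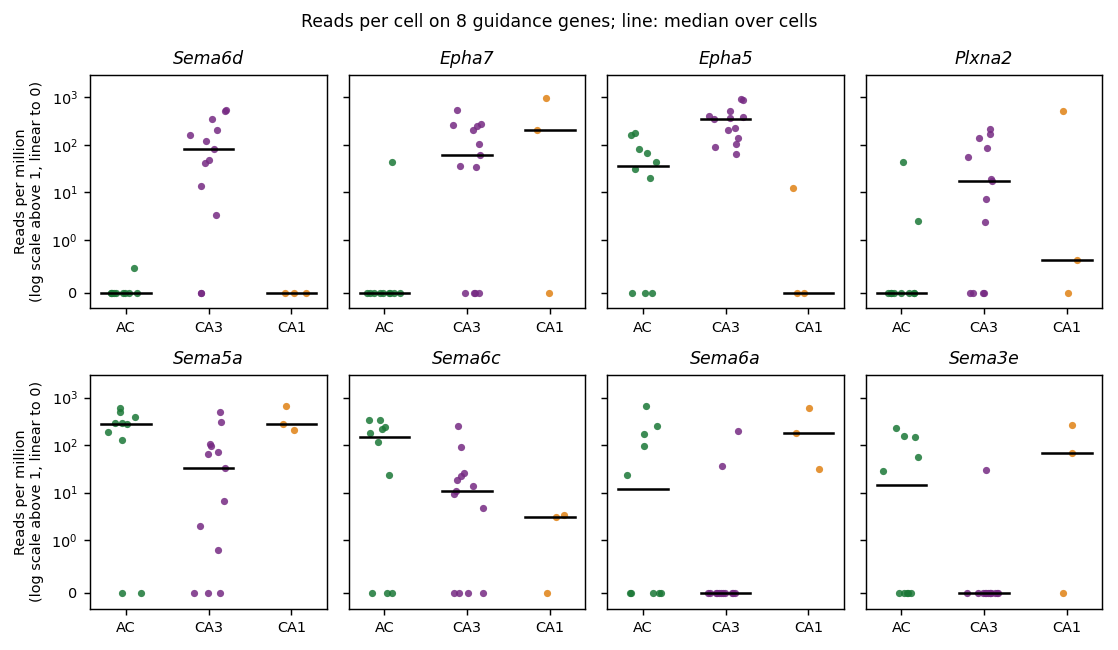
CPM in each AC, CA3 and CA1 cell for 8 guidance genes, on an axis that is logarithmic above 1 and linear down to 0; each point is a cell and the line is the median over cells. Sema6d, Epha7, Epha5 and Plxna2 have higher medians in CA3 than in AC, and Sema5a, Sema6c, Sema6a and Sema3e higher medians in AC.

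Sema3c (chr5:17574281-17730268, plus strand), a secreted class 3 semaphorin, had the most summed reads per kilobase of exon among guidance genes in both regions, at 42.3 CPM per kilobase over AC cells and 57.2 over CA3 cells. It was read in 7 of 10 AC cells, with a median of 138 CPM and a highest value of 1105 CPM, and in 12 of 13 CA3 cells, with a median of 417 CPM and a highest value of 959 CPM. The highest cells of both regions therefore overlapped, and the difference in mean log2 level of -2.999 (-3.78 to -2.30 with each cell left out) came with 3 AC cells at 0 and AC cell N5 at 0.529 CPM. Summed CPM differed less, at 302 (296 to 308) in AC and 408 (403 to 414) in CA3. Only CA1 cell N6 held reads, at 262 CPM. Sema3e, which signals through Plxnd1 without a neuropilin, was read in 5 of 10 AC cells at 28.8 to 224 CPM, in CA3 cell N29 alone at 30 CPM, and in CA1 cells N2X and N6 at 66.5 and 263 CPM. No read of Plxnd1 was found in the 23 cells. Sema3e too was chosen after its values were seen, and its difference was 3.62 in the 23 cells and 1.73 over all labelled cells. The remaining class 3 genes were nearly absent from these cells: Sema3a, Sema3b and Sema3d did not exceed 0.400 CPM in any of the 23 AC and CA3 cells, and Sema3f and Sema3g had no read there. Among the other labelled cells, Sema3a was the most-read class 3 gene in AC cells N45 and N50, and Sema3d in CA3 cells N14 and N15. Of these cells only N45 held Npy reads. N14 held 8200 CPM of oligodendrocyte precursor markers and N15 28480 CPM of oligodendrocyte markers.

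Sema5a (chr15:32244810-32696341, plus strand), a transmembrane semaphorin with thrombospondin repeats, was the widely read gene with the largest difference towards AC. Of 10 AC cells, 8 held reads, at 127 to 603 CPM, and the median over all AC cells was 283 CPM. In CA3, 10 of 13 cells held reads, but 8 of these lay below the lowest AC cell with reads, and the median was 33.6 CPM. CA3 cells N37 at 306 CPM and N40 at 500 CPM lay within the AC range. CA1 cells held 204, 279 and 664 CPM. The difference was 2.70 (2.25 to 3.59 with each cell left out), smaller than the SD over cells of 4.31 in AC and 3.95 in CA3, and it was 1.20 without the 2 cells per region with the fewest detected genes. Sema5b had no read.

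Reads of class 4 semaphorins, transmembrane ligands of which Sema4d signals through Plxnb1, summed to 230 CPM in AC (225 to 235), 29.2 CPM in CA3 (27.7 to 30.7) and 1.79 CPM in CA1 (0.817 to 3.39). Of its 6 genes, 3 were at least 1 higher in AC and none in CA3, beside 13.6% and 32.8% of all genes. Single cells carried most of this: Sema4d had 73.2% of its AC reads in N44, and Sema4b 87.2% of its AC reads in N41. Sema4f, at a difference of 2.10, was read at 240, 138 and 81.6 CPM in AC cells N4, N7 and N8 and at no more than 14.2 CPM in CA3. Over all labelled cells the differences of Sema4d and Sema4b were -0.02 and 0.44, and both also fell under 1 with single cells left out. Sema7a, a lipid-anchored semaphorin that binds Plxnc1, was read in CA3 cell N32 only, at 2.56 CPM.

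Plexins and neuropilins are the receptors of semaphorins. Plxna2 (chr1:194618218-194816869, plus strand), a receptor of class 6 semaphorins, was read in 9 of 13 CA3 cells at 2.34 to 215 CPM, with a median of 17.5 CPM over all CA3 cells. In AC, 2 of 10 cells held reads, N42 at 44.1 CPM and N46 at 2.46 CPM, and CA1 values were 523, 0.625 and 0 CPM. Both AC cells were among the 3 with high glial markers. Without such cells in either region the difference of -3.71 became -4.97. It was -1.81 over all labelled cells and -2.14 with a pseudocount of 10. Of the labelled AC cells outside the comparison, only N48 and N45 held Plxna2, with 961 and 289 reads. Both held Npy reads, and their microglia markers were at 841 and 1210 CPM. Labelled CA3 cell N13, also outside the comparison, held 57 reads of Plxna2. The part of glial RNA in the Plxna2 reads was not tested. Plxna3, a receptor that pairs with neuropilins and was chosen after its values were seen, showed the opposite division: it was read in 4 AC cells at 25.6 to 280 CPM, in CA3 cells N29 at 13.9 CPM and N30 at 0.715 CPM, and in no CA1 cell. The difference of Plxna3 was 2.82, and 0.95 over all labelled cells. Plxnc1 (chr10:94790866-94944835, minus strand), the receptor of Sema7a, was read in 6 AC cells with a highest value of 187 CPM and in 8 CA3 cells with a highest value of 261 CPM. Its difference of 0.64 was below the size counted as higher, and it lay between 0.16 and 1.18 with each cell left out. It was 2.17 without the 2 cells per region with the fewest detected genes and 1.75 without the cells with high glial markers, both past that size. Plxna1, Plxna4 and Plxnb2 differed by less than 1, while Plxnb1, Plxnb3 and Plxnd1 had no read in the 23 cells.

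Nrp2 (chr1:62703285-62818695, plus strand), a coreceptor for class 3 semaphorins, was read in 9 of 13 CA3 cells with a median of 40.7 CPM and a highest value of 190 CPM. In AC, 4 of 10 cells held reads, and N44 at 560 CPM carried 82.2% of all AC reads. The direction of Nrp2 therefore depended on the summary: the difference in mean log2 level was -1.86, whereas summed CPM was 65.9 in AC (63.2 to 68.7) and 52.9 in CA3 (50.9 to 55.0). Without the cells with high glial markers the difference of Nrp2 was -0.71. CA1 values were 0, 32.8 and 206 CPM. Nrp1, the other neuropilin, was read in CA3 cells N26, N28 and N33 at 211, 173 and 35.8 CPM, by 1 read in AC cell N3X, and in no CA1 cell.

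EphA receptors formed the family with the most genes higher in CA3. Of the 8 EphA genes with a read, 6 were at least 1 higher in CA3 and 1, Epha10, was at least 1 higher in AC, beside the 32.8% and 13.6% of all genes. Relative to the median of all genes the CA3 count was 5, since Epha4 then lay just under 1. Summed over the family, the median cell held 144 CPM in AC and 744 CPM in CA3, and the 3 CA1 cells held 328 to 1079 CPM. A mean of 2.0 ± 1.1 EphA genes was read per AC cell (SD, n = 10 cells) and 3.8 ± 1.3 per CA3 cell (SD, n = 13 cells).

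Epha5 (chr5:84054761-84417382, minus strand) was read in all 13 CA3 cells, at 62.5 CPM in the lowest, 355 CPM in the median and 904 CPM in the highest. In AC it was at 0 in N42, N43 and N44, and the median was 36.5 CPM and the highest value, in N8, 177 CPM. CA1 cell N2X held 12.2 CPM, and the other 2 CA1 cells were at 0. In all, 9 CA3 cells lay above the highest AC cell and the remaining 4, N26, N27, N29 and N40, within the AC range. Summed over cells, Epha5 was 4.82 times as high in CA3, at 360 CPM (354 to 365) against 74.7 CPM (71.8 to 77.6). The difference in mean log2 level was -4.37 (-4.83 to -3.77 with each cell left out), and the CA3 cells were the more uniform, with an SD of 1.17 against 3.89 in AC. Over all labelled cells the difference was -1.58.

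Epha7 (chr4:28813131-28967499, plus strand) was read in 9 of 13 CA3 cells at 34.5 to 537 CPM and in 1 AC cell, N4, at 42.6 CPM. The CA3 median was 59.9 CPM, and CA3 cells N26, N30, N32 and N39 were at 0. CA1 cells N1, N2X and N6 held 204, 0 and 955 CPM. All 9 CA3 cells with Epha7 also held Epha5, which was read in every CA3 cell, while no CA1 cell held both. The difference was -5.41 (-6.12 to -5.02 with each cell left out), -6.95 without the 6 cells with high glial markers, of which N4 is one, and -2.78 over all labelled cells.

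The other EphA genes were read in fewer cells and were chosen after their values were seen. Epha6 was read in 7 CA3 cells at 9.26 to 367 CPM, in AC cell N3X at 164 CPM and in CA1 cells N2X and N6 at 302 and 1.63 CPM. Epha3 was read in 6 CA3 cells at 8.30 to 300 CPM, in AC cell N41 at 274 CPM and in CA1 cell N1 at 291 CPM. Their differences were -3.57 and -2.74, and over all labelled cells -2.14 and -0.71. Epha8 was read in 4 CA3 cells at up to 83 CPM and in no AC or CA1 cell, where 3 reads would have been 0.0881 and 0.596 CPM. For Epha4, which also binds ephrin-B proteins, the difference was -1.31, but summed CPM was higher in AC, at 59.9 against 13.8, with N44 alone at 619 CPM, and the difference was -0.71 without the cells with high glial markers. Epha10 (chr4:124880899-124917800, plus strand), an Eph receptor without kinase activity, was read in 6 AC cells, with N3X at 340 CPM, N5 at 189 CPM and N7 at 67.0 CPM the highest. It was found in 5 CA3 cells at 0.358 to 53.4 CPM, and CA1 values were 0, 14.4 and 123 CPM. Its difference was 2.22 (1.52 to 2.72 with each cell left out). Epha2 had no read, and Epha1 did not exceed 5.82 CPM.

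Reads of EphB receptors summed to 160 CPM in AC (156 to 164) and 13.1 CPM in CA3 (12.1 to 14.2). A read of at least 1 EphB gene was found in 8 of 10 AC cells and 6 of 13 CA3 cells. Ephb3 was read in AC cells N7, N8 and N44 at 359, 182 and 115 CPM and by 1 read in N3X, and it was at 0 in all CA3 and CA1 cells, where 3 reads would have been 0.0614 and 0.596 CPM. Ephb2 was read in 5 AC cells at up to 35.2 CPM and in 3 CA3 cells at up to 7.03 CPM. Ephb6, which lacks kinase activity, was at 881 CPM in AC cell N46 and 0 in the other AC cells, so that its difference of -1.01 and its summed CPM, 84.0 in AC and 12.1 in CA3, pointed in opposite directions. These 3 genes were chosen after their values were seen.

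The ephrins, ligands of these receptors, were read at low levels. Efna3 (chr3:89313899-89322965, minus strand) was the only widely read one, in 5 AC cells with a highest value of 200 CPM, in 7 CA3 cells with a highest value of 70.9 CPM, and in CA1 at 13.3, 33.7 and 0 CPM. Its difference was 0.90, between 0.25 without N42 and 1.34 with each cell left out, 0.19 over all labelled cells, and -0.35 without the 6 cells with high glial markers, among them N42, which held the highest value. An opposite-strand gene, Gm15998, covers 14.1% of the exon bases of Efna3, and no source used here states whether counting used strand. Reads of ephrin-B genes summed to 10 CPM in AC (8.98 to 11.1) and 53.1 CPM in CA3 (51.03 to 55.13). Efnb2 was read in all 3 CA1 cells at 84.8, 37.2 and 63.4 CPM, in 3 AC and in 4 CA3 cells. Efnb3, at a difference of -1.29, had 71.5% of its CA3 reads in N39, and its difference was 0.12 without the cells with high glial markers.

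**Figure D3:**
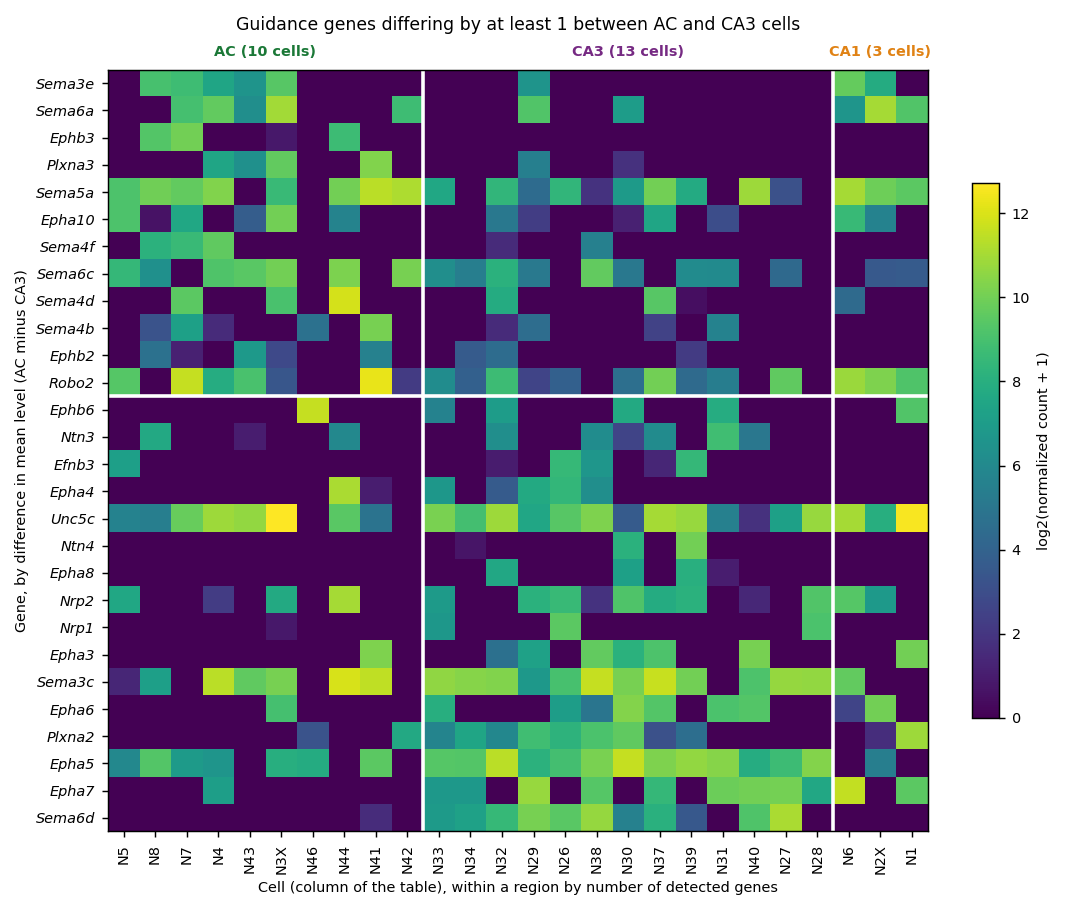
Levels as log2(normalized count + 1) of the 28 guidance genes with a difference of at least 1, in each of the 26 cells; genes are ordered by difference and cells, within a region, by the number of detected genes. The upper 12 genes are higher in AC and the lower 16 in CA3, and Unc5c, Sema3c, Sema5a, Sema6c, Robo2 and Epha5 were read in most cells of both regions.

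Unc5c (chr3:141465216-141834924, plus strand), a netrin receptor of the repulsive type, was read in 8 of 10 AC cells, all 13 CA3 cells and all 3 CA1 cells. AC cells ranged from 0 to 2219 CPM with a median of 105 CPM, and CA3 cells from 0.697 to 619 CPM with a median of 201 CPM. CA1 values were 1728, 74.0 and 652 CPM. The regions overlapped through nearly the whole range, and N3X held 69.6% of the AC reads. The direction was not stable: the difference in mean log2 level was -1.36 and -0.59 without AC cell N46, summed CPM was higher in AC at 380 (373 to 386) against 299 (294 to 303), and the difference was 0.31 without the 6 cells with high glial markers. Unc5d (chr8:28646717-29219636, minus strand), a related receptor that binds Flrt2, was read in 6 AC cells with a highest value of 120 CPM, in 8 CA3 cells with a highest value of 100.2 CPM and in CA1 at 173, 39.4 and 42.3 CPM. In every AC, CA3 and CA1 cell compared here that held Unc5d, Unc5c was read as well. Labelled AC cell N45, outside the comparison, held 454 reads of Unc5d and no read of Unc5c. The difference of Unc5d was 0.81, between 0.27 and 1.25 with each cell left out, 1.20 without the 2 cells per region with the fewest detected genes, 1.21 over all labelled cells and 1.99 without the 6 cells with high glial markers.

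Dcc, the receptor that mediates attraction to netrins, was read in AC cell N7 only, at 170 CPM. Of the AC, CA3 and CA1 cells with an Unc5 receptor, only N7 held Dcc as well. Ntn1 had no read in the 23 cells, whereas Ntn4, a netrin found in basement membranes, was read in CA3 cells N39 at 328 CPM, N30 at 78.3 CPM and N34 at 0.200 CPM. The difference of Ntn4 was -1.45, and it was -0.88 without the cells with high glial markers, of which N39 is one, and -0.86 over all labelled cells. Ntn3 was read in 3 AC cells at up to 57.5 CPM and in 6 CA3 cells at up to 124 CPM. A netrin and an Unc5 receptor were read together in 3 of 10 AC cells (30%, 6.67 to 65.2), 8 of 13 CA3 cells (61.5%, 31.6 to 86.1) and no CA1 cell. Every AC and CA3 cell with a netrin held an Unc5 receptor, so these are the counts of cells with a netrin.

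Robo2 (chr16:73891839-74411825, minus strand), a Slit receptor, was read in 7 AC cells with a median of 36.9 CPM, and N41 and N7 stood above all others at 1110 and 1063 CPM. In CA3, 10 cells held reads with a median of 6.42 CPM and a highest value of 312 CPM. Each CA1 cell held Robo2, at 168, 361 and 560 CPM. The difference of 1.01 was at the limit counted as higher and was 0.26 without N41, 0.53 over all labelled cells and 2.38 without the cells with high glial markers, while summed CPM was 244 in AC (239 to 249) and 50.9 in CA3 (48.9 to 52.9). Robo1 was read in 2 AC, 2 CA3 and 2 CA1 cells. Reads of the Slits themselves summed to 1.56 CPM in AC (1.17 to 2.04) and 0.901 CPM in CA3 (0.654 to 1.21), with no read in CA1.

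The gene of a family with the most reads, not divided by exon length, was also taken cell by cell. Among EphA genes it was Epha5 in 10 of 13 CA3 cells and Epha10 in 4 of 10 AC cells, whereas the 3 CA1 cells each had a different one, Epha3, Epha6 or Epha7. Among class 6 semaphorins it was Sema6d in 9 CA3 cells, and Sema6c in 5, Sema6a in 3 and Sema6b in 2 AC cells. Some leads rest on few reads, such as 1 of Sema6b in AC cell N46 and 3 of Unc5c in CA3 cell N40. Plxna2 was the most-read class A plexin in 7 CA3 cells and 2 AC cells, and Plxna3 in 3 AC cells and no CA3 cell. The same gene led in both regions among Unc5 receptors and class 3 semaphorins: Unc5c was the most-read Unc5 receptor in 12 of 13 CA3 cells, 5 of 10 AC cells and all 3 CA1 cells, and Sema3c led class 3 in 12 CA3 and 6 AC cells.

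**Figure D4:**
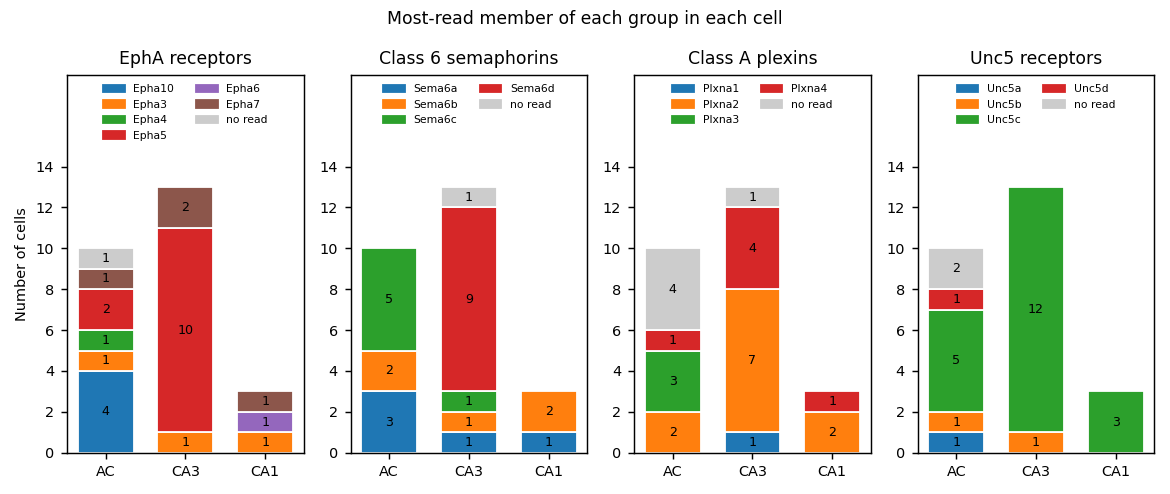
Number of cells in which each gene was the most-read member of its group, for EphA receptors, class 6 semaphorins, class A plexins and Unc5 receptors in AC (10 cells), CA3 (13 cells) and CA1 (3 cells); grey marks cells with no read of the group. Epha5 leads in 10 and Sema6d in 9 of the 13 CA3 cells, and neither leads in more than 2 AC cells. Reads are not divided by exon length, and some leads rest on few reads.

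Ligands and receptors that can bind each other were read together in some cells of both regions. Sema3c and Nrp2 were read together in 4 of 10 AC cells (40%, 12.2 to 73.8) and 9 of 13 CA3 cells (69.2%, 38.6 to 90.9), and in 2 and 7 cells at a depth of 601781 reads. At full depth each AC and CA3 cell with Nrp2 held Sema3c, so the pair count is the count of cells with Nrp2. A neuropilin with a class A plexin, the 2 parts of a class 3 semaphorin receptor, was found in 2 AC cells (20%, 2.52 to 55.6) and 8 CA3 cells (61.5%, 31.6 to 86.1), and in 1 and 6 cells when each cell was thinned to 601781 reads. Sema6d was read with a class A plexin in 10 CA3 cells and 1 AC cell. An EphA receptor was read with an ephrin-A in 4 of 10 AC cells (40%, 12.2 to 73.8) and 10 of 13 CA3 cells (76.9%, 46.2 to 94.96). Every CA3 cell held an EphA receptor, so the CA3 count is that of cells with an ephrin-A. A Robo receptor was read with a Slit in 2 AC cells, 4 CA3 cells and no CA1 cell, and in 2 cells of both AC and CA3 at that depth. At full depth every cell of these regions with a Slit held a Robo receptor.

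CA3 cell N29 stood apart from the other 12 CA3 cells in several guidance genes. It was the only CA3 cell with Sema3e, and it held the highest CA3 levels of Sema6a and Plxna3, genes that were otherwise read mostly in AC. It also held Sema6d at 343 CPM and Epha7 at 537 CPM, the highest Epha7 value in CA3. Of the 13 CA3 cells, N29 was the 1 cell with no read of Lhx6, a transcription factor of interneurons from the medial ganglionic eminence, though N27 and N38 held only 2 reads each, and the 1 cell with reads of Ndnf and Parm1. None of the 10 AC and 3 CA1 cells held Lhx6, and all of them held Parm1. Among the other labelled AC cells, N45 held 1302 reads of Lhx6 and none of Parm1, and Parm1 was read in N47, N51 and N4X but not in the remaining ones. Of the 3 CA1 cells, all held Sema6a, Sema5a and Robo2 and none Sema6d, and Epha7 and Plxna2 were read in 2.

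Summed reads per kilobase of exon put Sema3c first in both AC and CA3. In AC it was followed by Sema6c at 23.2 CPM per kilobase, Ephb6 at 22.3, all of it in N46, and Unc5c at 19.8. By the median over AC cells, Sema6c at 24.7 CPM per kilobase came before Sema3c at 19.3 and Sema5a at 15.2, with Unc5c at 5.50 and Ephb6 at 0. In CA3, Sema3c was followed by Epha5 at 21.5, Unc5c at 15.6, Ntn4 at 15.5, 92.2% of it in N39, and Epha6 at 13.8. The ranges over cells of neighbours in these orders overlapped. In CA1 the order began with Sema6a at 45.9, Epha6 at 36.4 and Sema6b at 30.9, with 92.9% of the Sema6a reads and 99.8% of the Epha6 reads in N2X. The medians over the CA1 cells were 20.1, 0.307 and 56.5 CPM per kilobase.

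The number of guidance genes read per cell overlapped between the regions: 5 to 23 per AC cell with a mean of 15.3 ± 6.1 (SD, n = 10 cells), 10 to 27 per CA3 cell with a mean of 18.8 ± 4.9 (SD, n = 13 cells), and 14, 17 and 20 in the CA1 cells. The difference of -3.47 genes was smaller than both SDs. At 601781 reads per cell the means were 13.7 and 15.9. The share of reads on these genes was 2616 CPM in AC (2599 to 2633), 2241 CPM in CA3 (2227 to 2254) and 3025 CPM in CA1 (2977 to 3074), and the AC to CA3 ratio of 1.17 was 0.988 when N3X, with 5591 CPM, was left out.

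Downstream of these receptors, a list of 44 signalling effectors held 43 genes with a read, of which 7 (16.3%) were higher in AC and 15 (34.9%) in CA3, near the 13.6% and 32.8% of all genes, with a median difference of -0.35, the value of all genes. The widely read effectors farthest towards AC were Arhgap39 (3.66), the focal adhesion kinase Ptk2 (2.90) and Ngef, an exchange factor that acts downstream of EphA receptors (2.36). Farthest towards CA3 were Chn1, which inactivates Rac downstream of EphA receptors (-3.35), Srgap1, a partner of Robo receptors (-2.78), and the Rac exchange factor Tiam1 (-2.75). Chn1 was read in all 13 CA3 cells at 40.3 to 1072 CPM and in 9 AC cells at up to 1824 CPM, and its summed CPM was higher in AC, at 586 against 451.

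A second list, of 32 other guidance cues, receptors and adhesion proteins, held 29 genes with a read, 8 (27.6%) higher in AC and 6 (20.7%) in CA3, beside 13.6% and 32.8% of all genes, with a median difference of -0.15. Flrt2, a transmembrane protein that binds Unc5 receptors, had the largest difference towards CA3 on it: it was read in 11 of 13 CA3 cells with a median of 88.2 CPM and a highest value of 553 CPM, and in none of 10 AC cells. CA1 cells held 0, 243 and 150 CPM of Flrt2. Its difference was -6.89 (-7.46 to -6.54 with each cell left out), and the adhesion proteins Nrcam (-3.17) and Slitrk5 (-2.39) followed among the genes with reads in 10 or more cells. Nrcam was at 0 in AC cells N4, N42, N43, N46 and N5, of which N4, N42 and N46 had high glial markers. Its difference without such cells is not given here. Dscaml1 (3.48), L1cam (1.68) and the synaptic adhesion protein Lrrc4 (1.35) were farthest towards AC among the genes with reads in 10 or more cells. In AC, Lrrc4 was read in N3X, N4, N46, N5 and N8 at 194, 121, 67.1, 23.3 and 17.6 CPM. Of these, N4 and N46 had high glial markers, and the difference of Lrrc4 without such cells is not given here. Of the genes on this list read in fewer cells, Slitrk4 differed by -3.62, Ptch1, the Hedgehog receptor, by 2.57, Slitrk2 by 2.17 and Boc by 1.64, all chosen after their values were seen.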

How the data were processed

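The values are whole read counts per gene symbol, deposited without normalization in a single table of 47 single-cell libraries. Per their methods and notes, reads were trimmed with Trimmomatic and Flexbar and aligned with STAR to GRCm38. The methods name HTSeq for counting and the processing notes featureCounts, and identifiers with the same symbol were averaged. Whether counting used strand is not given in the sources used here.

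Groups came from the cell type label. The members, the lists of genes and cells, and the size of 1 counted as higher were chosen with earlier results of these data known. The 10 AC and 13 CA3 cells are those that earlier work on this table had matched to the cells displayed in the study, of 19 and 21 labelled cells. The study displays further CA3 cells that were matched to no column, and the match was not redone here. Size factors over the 26 cells were computed by pooling 10 and 20 cells (scran 1.30.0, function computeSumFactors, under R 4.3.3), and scaled counts were log2 transformed with a pseudocount of 1. The code was checked on simulated counts. No filter was put on genes other than a read in the 23 cells. Coordinates and merged exon lengths are from GENCODE vM21 (GRCm38) and cover all 69 genes. Named genes are those read in at least 10 of the 23 cells that were among the 8 farthest towards AC, the 8 farthest towards CA3 or the 8 with the most reads per kilobase, and other genes are named only where an account of a family needed them. From the lists, the 3 farthest in each direction are named.

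Each alternative changed 1 choice, except 1 that joined a filter with centring: all labelled cells, cells left by the stated filter, each cell left out, the 2 cells per region with the fewest detected genes left out, the cells with high glial markers left out, library size, edgeR 4.0.16 and DESeq2 1.42.0 size factors, centring, pseudocounts of 0.1 and 10, a filter on low counts, thinning, and summed CPM. Counts of 3 reads set the limit where a region was at 0. The 2 DG libraries and 1 NPY-negative CA3 library entered no comparison.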

Additional observations from a re-analysis of the deposited data

Results flagged for a closer look

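The values of the 14 named genes were looked over for AC cells far from the rest, and 3 genes had 1 cell set apart from the other 9. They were Epha7 in N4, at a log2 level of 7.13, Plxna2 in N42, at 7.67, and Sema6d in N41, at 1.62, the last from 2 reads. The other 9 cells were at 0 for Epha7 and Sema6d, and for Plxna2 N46 held a level of 3.25. The limit used flags about 1 in 20 groups by chance where values are continuous. That rate does not hold for these genes, since with the other cells at 0 a single cell with reads is always set apart. N4 and N42 are 2 of the 3 AC cells in which a list of glial markers passed 1000 CPM (1506 CPM of astrocyte markers in N4 and 4570 CPM of microglia markers in N42), and the part of these in the values was not tested.

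Guidance genes were also read in the 3 libraries that entered no comparison. DG library N11 held 1 of the 69 genes, DG library N12 held 3, and the NPY-negative CA3 library N16 held 11.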

How the results depend on the processing

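No paired analysis was possible because each sample is 1 cell and the labels give no number or animal shared between regions. The number of guidance genes at least 1 higher in AC was 12, and 23 by the log2 ratio of summed CPM, 19 without the 6 cells with high glial markers, 4 with only genes read in at least 10 of the 23 cells, and 7 with that filter and centring on its median. The shares of all genes under these settings were 13.6%, 23.4%, 18.03%, 15.4% and 29.3%. The number higher in CA3 was 16, and 10 with a pseudocount of 10, 7 with the filter, and 5 with the filter and centring, beside 32.8%, 20.9%, 48.1% and 29.6% of all genes. Of the 14 named genes, Nrp2 (0.31) and Unc5c (0.35) changed direction in the log2 ratio of summed CPM, and Unc5c (0.31) and Efna3 (-0.35) without the cells with high glial markers. The list of other guidance cues held 8 genes higher in AC, and 5 with the filter, under which fewer genes are counted. The alternatives that left out these cells or the 2 cells per region with the fewest detected genes, and the one that joined the filter with centring, were chosen after seeing the data.

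With each cell left out in turn, the count ranged from 10 to 15 for AC and from 13 to 18 for CA3, the median difference from -0.16 to 0.06, the difference in guidance genes read per cell from -4.32 to -2.32 and the AC to CA3 ratio of their share of reads from 0.988 to 1.30. Each of these cells came from an unnamed animal, and genes read in few cells cannot be placed firmly: a gene at 0 in a cell was not detected at that depth. Reads are amplified and were not counted as molecules. The filter alone leaves the difference of a single gene as it is; joined with centring, Nrp2 (-0.95) and Unc5c (-0.46) fell under 1 and Efna3 (1.81), Plxnc1 (1.55) and Unc5d (1.72) passed it.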
